A study of Mus musculus with 6 samples.

Results

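The miR-290 to miR-295 cluster on mouse chromosome 7 yields hairpin miRNAs that are abundant in pluripotent and embryonal carcinoma cells. The 4 strands described here, mmu-miR-291a-3p, mmu-miR-292a-3p, mmu-miR-294-3p and mmu-miR-295-3p (written below without the mouse prefix), come from the 3p arms of this cluster, and all hybrids listed under these 4 names were taken. They accounted for 581 of 15680 hybrid reads (3.71%) and for 4 of 298 miRNAs in the table. These reads came from 577 entries, each a distinct sequence within its library (569 distinct sequences over all libraries), joined to 334 target genes.

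AGO2 CLASH was performed on P19 mouse embryonic carcinoma cells. In CLASH, RNA held together by AGO2 is cross-linked and ligated, so that each sequenced hybrid carries a miRNA followed by a fragment of the mRNA to which it was bound. The 3 WT libraries came from cells with genotype Dicer (+/+), and the 3 HM libraries from cells with genotype Dicer (HM/-), in which one allele carries a loss-of-function truncation and the other a hotspot change in the RNase IIIb domain. The HM line is a single clone and its genotype and clonal history cannot be told apart. The libraries are labelled as biological replicates.

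Dicer cuts a miRNA hairpin with a pair of RNase III domains. RNase IIIb releases the 5p strand, whereas RNase IIIa cuts the 3p arm and so sets the first base of the 3p strand. AGO2 reads targets mainly through the seed, bases 2 to 8 of the strand, and a strand that starts at another base has another seed. The miR-290 and miR-302 families carry one of the best known seeds of pluripotent cells, where they promote passage from G1 to S phase and self-renewal.

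The mature strands show what the family shares and where it differs. They are printed as given by RefSeq (GRCm38.p6), 5′ to 3′, with the seed in capitals.
miR-291a-3p: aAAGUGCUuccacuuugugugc
miR-294-3p: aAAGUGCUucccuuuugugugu
miR-295-3p: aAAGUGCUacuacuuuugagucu
They lie on the plus strand at chr7:3218968-3218989, chr7:3220691-3220712 and chr7:3220815-3220837. These 3 strands have the same seed. miR-292a-3p has the same bases 1 to 7 and differs from miR-294-3p at the last base of the seed (U8C, counted from the 5′ end of the miRNA). The best site of each strand therefore shares 6 letters, GCACTT, the reverse complement of bases 2 to 7. Such a site is preceded by A where it also pairs with base 8 of the first 3 strands and by G where it pairs with base 8 of miR-292a-3p. Along the 22 positions that can be compared, miR-291a-3p and miR-294-3p were the same at 19, whereas miR-291a-3p and miR-292a-3p were the same at 15. None of the 577 entries was as close to another of the 4 strands as to the one it was listed under, and 569 matched that strand exactly.

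The libraries held between 1621 and 5341 hybrid reads, of which 701 to 5113 came from 3p strands. HM libraries had 9368 of the 12076 hybrid reads of 3p strands (77.6%). A strand with a count of 0 could still make up 3 reads, or 0.0587% to 0.428% of a library's 3p hybrids, a limit that covers counting error only. In their miRNA counts, WT libraries 1 and 2 (chi-square p = 0.674) and HM libraries 1 and 2 (p = 0.741) differed by less than the sampling noise, whereas WT libraries 1 and 3 (p = 0.00101) and WT libraries 2 and 3 (p = 2.62e-07) did not. WT libraries 1 and 2 shared only 34 whole sequences (1.79% of those in WT library 1) and HM libraries 1 and 2 only 81 (5.02% of those in HM library 1), so all were kept as separate libraries. Summing either pair, which for WT was chosen after seeing the data, changed no call among the 4 strands. Hybrids of miR-302 and miR-367 strands made up 26.3% to 29.0% of WT libraries and 51.4% to 53.9% of HM libraries, and those of all miR-290 to miR-295 strands 8.14% to 9.78% and 4.82% to 5.47%. Strands of differentiated cells had 18 reads in all and let-7 strands 5.

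The first comparison asked whether the 4 strands kept their place among 3p hybrids when the 5p strands were lost. In HM libraries the 4 strands still gave hybrids, with 429 reads in total, and miR-292a-3p led in both genotypes. miR-291a-3p, miR-294-3p and miR-295-3p had lower means in HM libraries, but no strand passed the test.

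The reads of mmu-miR-292a-3p numbered 20, 16 and 17 in the WT libraries 1, 2 and 3, against 27, 126 and 58 in the HM libraries. Per 1000 hybrid reads of 3p strands, this came to 20.3 ± 4.99 (SD, n = 3) in WT and 21.1 ± 3.84 (SD, n = 3) in HM libraries, and the libraries overlapped. The log2 fold change was 0.17 (SE 0.25, edgeR adjusted p = 0.554).

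For mmu-miR-291a-3p the reads were 14, 16 and 7 in WT cells, against 12, 50 and 20 in HM cells. Its level was 13.3 ± 2.90 (SD, n = 3) per 1000 3p hybrids in WT and 8.28 ± 1.3 (SD, n = 3) in HM libraries. The lowest WT library, at 9.99, lay just above the highest HM library, at 9.78. The log2 fold change was -0.66 (SE 0.34, edgeR adjusted p = 0.0866).

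WT libraries gave 11, 16 and 7 reads of mmu-miR-294-3p, and HM libraries 12, 34 and 28. Per 1000 3p hybrids this was 12.2 ± 2.35 (SD, n = 3) and 8.24 ± 2.00 (SD, n = 3). For mmu-miR-295-3p, with 11, 11 and 6 reads against 16, 37 and 9, it was 10.2 ± 1.73 (SD, n = 3) and 6.90 ± 3.37 (SD, n = 3). Both strands overlapped between genotypes. Their log2 fold changes were -0.63 (SE 0.36, edgeR adjusted p = 0.106) and -0.64 (SE 0.38, edgeR adjusted p = 0.132).

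Of all 94 miRNAs tested, 59.6% passed the threshold, 16% higher and 43.6% lower in HM libraries, whereas 0 of these 4 strands did, and 0 of 4 had an unadjusted p under 0.05 with either edgeR or DESeq2. The libraries did not overlap for 1 of the 4 strands and for 69.1% of all miRNAs tested. The median log2 fold change was -0.64 over the 4 strands, 0.20 over the 58 3p strands tested and -0.72 over all 94 miRNAs.

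These directions hold per 3p hybrid. Per hybrid of any arm the median of all miRNAs moved from -0.72 to 0.33, the calls higher in HM libraries from 15 of 56 to 32 of 63, and all 4 strands had positive log2 fold changes, with miR-292a-3p called at 1.24 (edgeR adjusted p = 3.38e-07). With TMM factors over 3p strands the median was -0.31, 19 of 52 calls were higher, and miR-292a-3p was called at 0.59 (edgeR adjusted p = 0.0272). Without WT library 3, miR-291a-3p was called at -0.77 (edgeR adjusted p = 0.0283) and miR-294-3p at -0.76 (edgeR adjusted p = 0.0382). Without HM library 3, miR-294-3p was called at -0.84 (edgeR adjusted p = 0.0433). A lower count of hybrids can come from less of a strand or from fewer ligations per strand, and hybrids alone cannot tell these apart.

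**Figure D1:**
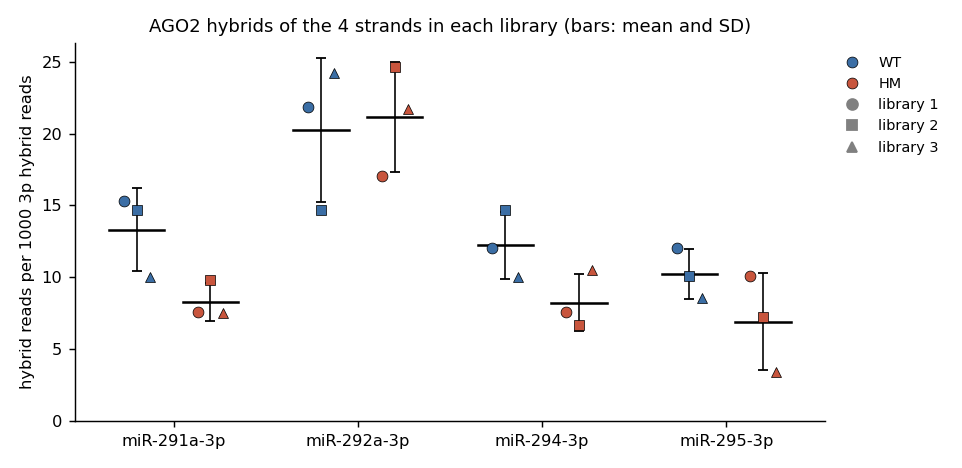
Hybrid reads of each strand per 1000 hybrid reads of 3p strands (y axis) in the 3 WT and 3 HM libraries, each marker one library, with the mean and SD drawn as bars. miR-292a-3p lies near 20 in both genotypes (20.3 and 21.1), and the WT and HM libraries separate for miR-291a-3p, where no WT library falls below 9.99; per hybrid of any arm all 4 differences turn positive.

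The opposite strands of the same hairpins were nearly absent from HM libraries. WT libraries held 70, 82 and 63 reads of miR-291a-5p, 17, 35 and 14 of miR-292a-5p, 10, 0 and 2 of miR-294-5p and 1, 2 and 1 of miR-295-5p. HM libraries held 1 read of miR-292a-5p and 0 of the other 3. The remaining 3p strands were sparse, with 1 read of miR-290a-3p and 2 of miR-291b-3p. miR-293-3p, which differs from the 4 strands in bases 2 to 7, drew 1, 5 and 1 reads from the WT libraries, against 11, 43 and 29 from the HM libraries.

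Within the family, miR-292a-3p supplied 36.3% ± 9.43 (SD, n = 3) of the hybrids of the 4 strands in WT and 47.2% ± 6.03 (SD, n = 3) in HM libraries. The difference was 11 percentage points, above the pooled SD of 7.91, but the libraries overlapped (exact permutation test, two-sided, p = 0.2, where 3 against 3 libraries cannot go below 0.1). It was 6.42 points without WT library 2. The shares of miR-291a-3p (23.7% and 18.5%, exact p = 0.2), miR-294-3p (21.9% and 18.7%, exact p = 0.4) and miR-295-3p (18.2% and 15.6%, exact p = 0.7) overlapped as well.

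Where the strands began was examined next, since the 3p start follows from the RNase IIIa cut. miR-291a-3p differed most. All 37 of its hybrid reads in WT libraries began at the RefSeq first base, whereas 25 of 82 in HM libraries lacked that base. The form that starts 1 base later is printed with its own bases 2 to 8 in capitals.
miR-291a-3p from its base 2: aAGUGCUUccacuuugugugc

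The later start made up 0 of 14, 0 of 16 and 0 of 7 miR-291a-3p reads in WT libraries 1, 2 and 3. It made up 2 of 12 reads in HM library 1 (16.7%, Wilson 95% interval 4.70 to 44.8), 14 of 50 in HM library 2 (28.0%, 17.5 to 41.7) and 9 of 20 in HM library 3 (45.0%, 25.8 to 65.8). Every HM library was above every WT library. The 25 late reads were 25 distinct sequences joined to 23 genes.

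The share of hybrids with the reference start thus went from 100% in each WT library to 70.1% ± 14.3 (SD, n = 3) in HM libraries. The difference of -29.9 percentage points had the smallest p that the design allows (exact permutation test, two-sided, p = 0.1), and it was 0.3 after Benjamini-Hochberg adjustment over the 21 miRNAs that reached 20 reads in both genotypes. For 33.3% of these the libraries did not overlap, and 4 of the 21, 19%, had every HM library below every WT library. Ranked by the rise in late starts, a measure chosen after the values were seen, miR-291a-3p was the first of the 21. The median rise over the 14 other 3p strands was -0.96 percentage points, with 5 higher and 8 lower in HM libraries. With WT libraries 1 and 2 summed the difference was still -29.9 points.

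The other 3 strands behaved in different ways. miR-292a-3p started 1 base late in both genotypes, in 12 of 53 WT reads (22.6%) and 51 of 211 HM reads (24.2%), with library means of 22.7% ± 5.83 (SD, n = 3) and 22.3% ± 6.68 (SD, n = 3). miR-294-3p had the late start in 0 of 34 WT reads and in 1 read of each HM library. miR-295-3p had it in 3 of 28 WT reads and 1 of 62 HM reads. For miR-294-3p the libraries did not overlap, on 3 late reads. A late share without overlap was seen for 28.6% of the 21 miRNAs, 14.3% higher and 14.3% lower in HM libraries.

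**Figure D2:**
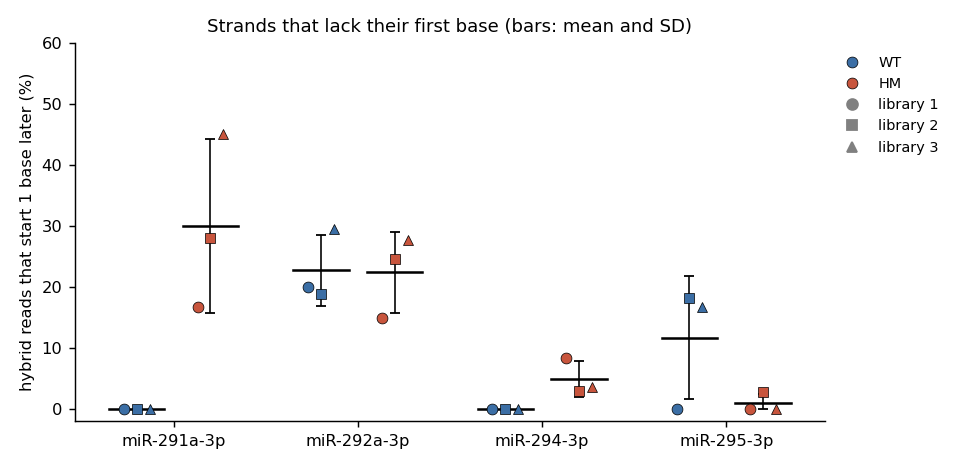
Percent of hybrid reads of each strand that start 1 base after the reference start (y axis) in each library, each marker one library, with the mean and SD drawn as bars. WT libraries stand at 0 for miR-291a-3p and the HM libraries at 16.7, 28.0 and 45.0, while miR-292a-3p shows 14.8 to 29.4 in libraries of either genotype.

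The later start went with another kind of target site. A strand that lacks its first base reads as its bases 2 to 7 what were bases 3 to 8, and the matching site is AGCACT for miR-291a-3p and GGCACT for miR-292a-3p. Fragments that held this shifted site without the 6-nt seed site were counted. The shifted site was defined after the late starts were seen.

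For miR-291a-3p in HM libraries, 32 of 57 hybrids with the reference start held the seed site (56.1%) and 3 held only the shifted site (5.26%). Of the 25 hybrids with the late start, 2 held the seed site (8.0%) and 11 the shifted site (44.0%). The seed site was less frequent among late starts in 3 of 3 HM libraries, by 47.9 ± 6.88 percentage points (SD, n = 3), and the shifted site more frequent in 3 of 3, by 41.7 ± 8.33 points (SD, n = 3). With 3 libraries an exact paired permutation test cannot go below 0.25, and both comparisons had p = 0.25.

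miR-292a-3p gave the same contrast in each of the 6 libraries for the seed site. It held the seed site in 111 of 200 hybrids with the reference start (55.5%) and in 8 of 63 with the late start (12.7%). The mean difference over libraries was -50.4 ± 9.57 percentage points (SD, n = 6; exact paired permutation test, two-sided, p = 0.0312, the smallest that 6 libraries allow, and 0.125 after Benjamini-Hochberg adjustment over 4 such comparisons). The shifted site was found in 17 hybrids with the reference start (8.5%) and in 18 with the late start (28.6%). It was more frequent among late starts in 5 of 6 libraries, by 25.0 ± 26.2 points (SD, n = 6; exact paired permutation test, p = 0.0625, adjusted 0.125).

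For comparison, fragments joined to miRNAs with other bases 2 to 7 held the letters AGCACT without the seed site in 1.10% of reads and GGCACT in 0.401%. Strands whose own seed pairs with these letters, at a shift, were not left out, so these are not chance levels. Among miR-302 strands, which share bases 2 to 7 with the 4 strands, the share with the seed site was 42.7% at the reference start and 36.4% at the late start for miR-302a-3p, 46.5% and 41.6% for miR-302b-3p, and 43.8% and 38.5% for miR-302d-3p. Only the shifted site was held by 1.09% and 13.6%, 1.39% and 6.21%, and 2.59% and 11.5% of their hybrids. The difference between the families was not tested.

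Seed sites were then compared between genotypes. For miR-291a-3p the share of fragments with a 6-nt seed site was 50%, 68.8% and 71.4% in WT libraries, against 33.3%, 44.0% and 40.0% in HM libraries, so that the genotypes did not overlap. The means were 63.4% ± 11.7 (SD, n = 3) and 39.1% ± 5.39 (SD, n = 3), a difference of -24.3 percentage points (exact permutation test, two-sided, p = 0.1, adjusted over 21 miRNAs 0.42). Among its hybrids with the reference start alone the difference was -9.40 points (exact permutation test, p = 0.5), a setting added after the late starts were seen.

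For miR-292a-3p the share was 40.0%, 43.8% and 41.2% in WT libraries, against 51.9%, 45.2% and 44.8% in HM libraries. The difference was 5.66 points in the opposite direction, again without overlap (exact permutation test, p = 0.1, adjusted 0.42). miR-294-3p and miR-295-3p, with few reads in WT libraries, ranged from 14.3% to 72.7% and from 33.3% to 81.8% there, and overlapped with HM libraries. For 23.8% of the 21 miRNAs compared the libraries did not overlap (19% lower and 4.76% higher in HM libraries), and 0 of the 21 passed the adjusted threshold, which no exact test of 3 against 3 libraries could reach.

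Over all 6 libraries, 288 of the 581 hybrid reads of the 4 strands held the shared 6-nt site (49.6%), between 40.5% and 57.1% per library. This was close to 44.5% for the other 6 miRNAs with the same bases 2 to 7, nearly all of them miR-302 reads. In fragments joined to the 288 miRNAs with other bases 2 to 7, the same letters were found in 13.2% of reads. This share ranged from 18.5% to 22.5% in WT libraries and from 6.30% to 7.88% in HM libraries. It is not a chance level, since miRNAs whose seed overlaps these letters at a shift were not left out. Nearly all 5p strands are in this set, with 911 to 1233 reads per WT library and 70 to 194 per HM library. Their part in the share was not tested. The most common site of the 4 strands was the 8-nt form, a match to bases 2 to 8 followed by A, in 107 reads (18.4%). The 7-nt match to bases 2 to 8 had 100 reads (17.2%), and 293 reads (50.4%) held no site.

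**Figure D3:**
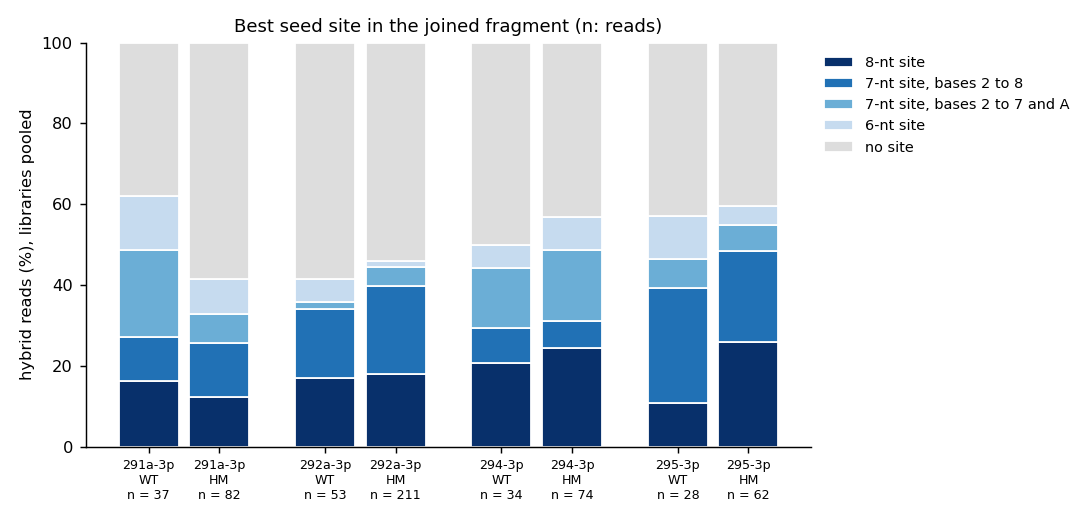
Percent of hybrid reads (y axis, libraries of a genotype pooled) by the best seed site in the joined fragment, for each strand in WT and HM libraries, with the number of reads under each bar. Sites of any kind make up 62.2% of miR-291a-3p reads in WT and 41.5% in HM, and 41.5% and 46.0% for miR-292a-3p.

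The base before the shared site separated miR-292a-3p from the other 3 strands. Of 120 shared 6-nt sites in fragments of miR-292a-3p, 102 were preceded by G (85.0%) and 4 by A (3.33%). Of 184 sites in fragments of the other 3 strands, 20 were preceded by G (10.9%) and 117 by A (63.6%). A made up 55.2% for miR-291a-3p, 61.4% for miR-294-3p and 75.0% for miR-295-3p.

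The contrast was seen within each library. G preceded 57.1% to 100% of the miR-292a-3p sites of a library and 0% to 19.2% of those of the other strands, a mean difference of 70.4 ± 11.9 percentage points (SD, n = 6; exact paired permutation test, two-sided, p = 0.0312, the smallest that 6 libraries allow, and the same after adjustment over both bases). A was less frequent for miR-292a-3p in 6 of 6 libraries, by 57.4 ± 18.3 points (SD, n = 6; exact paired permutation test, p = 0.0312). In WT and HM libraries the mean difference for G was 69.4 and 71.4 points. The authors kept only hybrids of predicted miRNA and gene combinations, and the predictions treat the seeds apart. How that filter was applied is not stated in detail. Of the 581 reads kept, 293 (50.4%) held no seed site, so it did not require one within the fragment. A filter on genes could still favour genes that hold the site of the named strand. The contrast cannot be told apart from the filter, whose part in it was not tested.

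**Figure D4:**
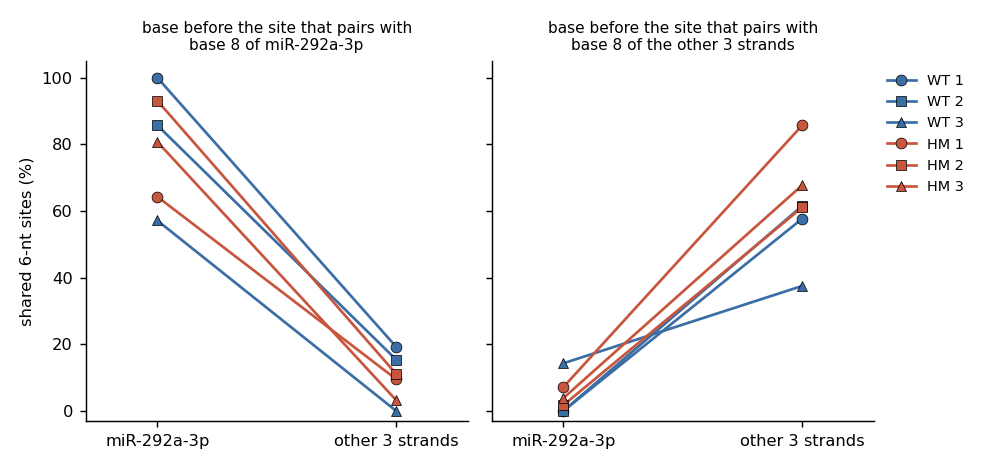
Percent of shared 6-nt sites (y axis) preceded by the base that pairs with base 8 of miR-292a-3p (left) or with base 8 of the other 3 strands (right), with one line per library joining miR-292a-3p to the other 3 strands. All 6 lines fall on the left and rise on the right.

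Outside the seed the strands differ most, so their fragments were searched for the 4 letters that pair with bases 13 to 16, a region where extra pairing can occur. For miR-292a-3p 22 of 264 own hybrid reads held the letters (8.33%) against 10 of 317 of the other 3 strands (3.15%), higher in 5 of 6 libraries (exact paired permutation test, two-sided, p = 0.0625). For the other strands the pooled shares were 16% against 12.1% for miR-291a-3p, 11.1% against 9.51% for miR-294-3p and 7.78% against 13.8% for miR-295-3p (exact paired permutation test, p = 0.688 for each). Their mean differences over libraries were -1.66, 1.18 and -1.99 percentage points, so that for miR-291a-3p the mean and the pooled value differ in sign. None of the 4 comparisons passed 0.05. Bases 13 to 16 are the same in miR-291a-3p and miR-295-3p, so the strands that each was set against include one with the same letters. For these strands the comparison cannot show pairing particular to either.

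The targets were spread thinly. Of 334 genes, 220 (65.9%) had 1 read, 239 were seen in 1 library, 8 were seen in at least 4 libraries and 17 had at least 5 reads. WT hybrids covered 120 genes and HM hybrids 275, with 61 in both, which is 50.8% of the WT genes and 22.2% of the HM genes. Drawn to the 37 reads of the smallest library, the 4 strands together reached 34.8 ± 0.839 (SD, n = 3) genes in WT and 34.5 ± 0.492 (SD, n = 3) in HM libraries, a difference within the spread (exact permutation test, p = 0.6). Each strand alone overlapped between genotypes as well, and of the 11 miRNAs compared in this way 9.09% did not.

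A single strand had all hybrids of 272 genes, among them the 220 with 1 read, a pair of strands shared 47, and 15 genes had 3 strands. Of the 114 genes with at least 2 reads, 62 (54.4%) had hybrids of more than 1 strand. miR-291a-3p and miR-292a-3p shared 20 genes, 20% of the 100 genes of the first and 12.6% of the 159 of the second. Overlap with miR-302b-3p, which had 813 genes, was larger: it held 77.0% of the genes of miR-291a-3p, 57.2% of those of miR-292a-3p, 62.8% of those of miR-294-3p and 77.0% of those of miR-295-3p. Strands with like seeds have like predicted genes, and only predicted combinations were kept. The part of that filter in the overlap was not tested.

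Over the reads per target gene, the miRNAs most like the 4 strands were miR-302b-3p, with a cosine of 0.604 over genes, miR-302a-3p (0.549) and miR-302d-3p (0.481). miR-130a-3p (0.269) and miR-301a-3p (0.219) followed, which do not share bases 2 to 7. These are descriptions over all 6 libraries with reads summed, and the filter on predicted combinations bears on them as well.

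For 12 of the genes with most hybrids, a fragment that holds the site form seen there is shown. The fragments are printed 5′ to 3′ as deposited, 1 for each gene, with the letters of the site in capitals. All lie in 3′ UTRs, to which the authors aligned, and their coordinates were not used here. The first set holds the shared 6-nt site, preceded by G for miR-292a-3p and by other bases for the rest.
Lifr with miR-292a-3p: ctgcttagGCACTTactcagat
Ndn with miR-292a-3p: ctcagtgtagGCACTTagcaccccttac
Mtmr4 with miR-292a-3p: atgtaccagtgGCACTTaacca
Ddx3x with miR-292a-3p: aaaacactgGCACTTgaatgttga
Kmt2a with miR-294-3p: atagggagaaGCACTTatgacgaggc
Clptm1l with miR-294-3p: aggaaccataGCACTTaacca
Klhl17 with miR-291a-3p: ctgggcacacaacatGCACTTagatcca
Zbtb7a with miR-294-3p: aaggaaaatGCACTTttttgggggtggg

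Kmt2a, a histone H3 lysine methyltransferase, led with 16 reads, 2, 1 and 0 from WT and 2, 6 and 5 from HM libraries. Of these miR-294-3p had 12, miR-291a-3p 2 and miR-295-3p 2. Its printed site was in 13 reads from 5 libraries. miR-294-3p with Kmt2a could be tested as a pair. The log2 fold change was -0.12 (SE 1.07, edgeR adjusted p = 0.958), and it was 0.86 per hybrid of any arm. miR-302b-3p had a further 54 reads on the gene.

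Klhl17, a member of the Kelch-like family, drew 0, 2 and 1 reads from WT libraries, against 0, 1 and 3 from HM libraries. All 7 were on the printed site, 6 with miR-291a-3p and 1 with miR-294-3p. The gene had only 10 hybrid reads with any miRNA. Zbtb7a, a transcriptional repressor, drew 3, 0 and 0 reads against 0, 3 and 2, and its printed site took 3 reads of miR-294-3p and 1 of miR-291a-3p.

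Lifr, the receptor subunit for leukaemia inhibitory factor, had 5 reads, all with miR-292a-3p and all on 1 site, from 3 libraries. Ddx3x, a DEAD-box RNA helicase, had 7 reads, also all with miR-292a-3p, in 5 libraries. Its printed site was in 4 of these reads, from 4 libraries. The site in Ndn, an imprinted growth suppressor, was joined to miR-292a-3p in 3 reads, to miR-291a-3p in 1 and to miR-295-3p in 1. Mtmr4, a phosphoinositide phosphatase, showed the same sharing, with 3 reads of miR-292a-3p and 1 of miR-291a-3p on the printed site. For miR-292a-3p such a site matches through base 8, and for the others the exact match ends at base 7.

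The second set holds the shifted site, without the shared 6 letters, for miR-292a-3p.
Pafah1b2 with miR-292a-3p: tagaccactGGCACTacagaatcctttc
Cnot6 with miR-292a-3p: cgccgtgtGGCACTaaagtgaactgttg

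Pafah1b2, a catalytic subunit of a platelet-activating factor acetylhydrolase, drew 0, 1 and 0 reads from WT libraries, against 3, 3 and 3 from HM libraries. Every one of the 10 reads was of miR-292a-3p, and these were 71.4% of the 14 hybrid reads of the gene with any miRNA. The printed site was found in 9 reads, 3 of them with the late start. The log2 fold change of the pair was 1.31 (SE 1.42, edgeR adjusted p = 0.707), which did not pass the test. Leaving out WT library 1 gave 0.77, leaving out WT library 3 gave 0.90, and counting per hybrid of any arm gave 2.21.

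Cnot6, a deadenylase subunit of the CCR4-NOT complex, drew 0, 1 and 1 reads against 1, 4 and 4, all 11 with miR-292a-3p. The printed site was in 5 reads from 4 libraries, and 4 of these 5 had the late start. Its log2 fold change was 0.36 (SE 1.22, edgeR adjusted p = 0.936). These were the only pairs of the 4 strands, with that of Kmt2a, that reached the 10 reads needed for a test. None of the 3 was called, against 15.7% of all 140 pairs tested (2.14% higher and 13.6% lower in HM libraries). Those 140 were not limited to 3p strands. None of the 3 had an unadjusted p under 0.05 with edgeR or DESeq2. The WT and HM libraries did not overlap per 3p hybrid for 0 of the 3 and for 23.6% of all pairs tested.

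The third set has neither site but the shared 6 letters with a single change, a site form looked for after these fragments were seen.
Rlim with miR-292a-3p: cactgtttatgGCGCTTatgtaat
Peg10 with miR-294-3p: gtggacgagtGTACTTattgg

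Rlim encodes an E3 ubiquitin ligase that acts in X inactivation. It drew 0, 1 and 1 reads from WT libraries, against 1, 5 and 3 from HM libraries, of which 10 held the printed letters: 6 with miR-292a-3p, 3 with miR-295-3p and 1 with miR-294-3p.

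Peg10, an imprinted gene derived from a retrotransposon, had no read in WT libraries and 1, 4 and 2 in the HM libraries, with miR-291a-3p (3), miR-294-3p (3) and miR-295-3p (1). The printed letters were in 4 of its 7 reads. Cbx2, a Polycomb subunit, had none in WT libraries and 0, 4 and 2 in the HM libraries, all with miR-292a-3p. The 7 and 6 reads came to 0.0747% and 0.0640% of the HM hybrids of 3p strands, under the 0.111% that a count of 0 allows over the 3 WT libraries, so no difference was detectable at this depth.

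Tfrc, the transferrin receptor, drew 0, 2 and 2 reads from WT libraries, against 0, 4 and 0 from HM libraries, of which 6 were with miR-292a-3p and 4 held the shifted site. Clptm1l drew 1, 0 and 0 against 0, 4 and 0, and its printed site was in 2 reads from 1 library. Over all targets 73.8% of the reads came from HM libraries, which held 77.6% of the 3p hybrids.

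**Figure D5:**
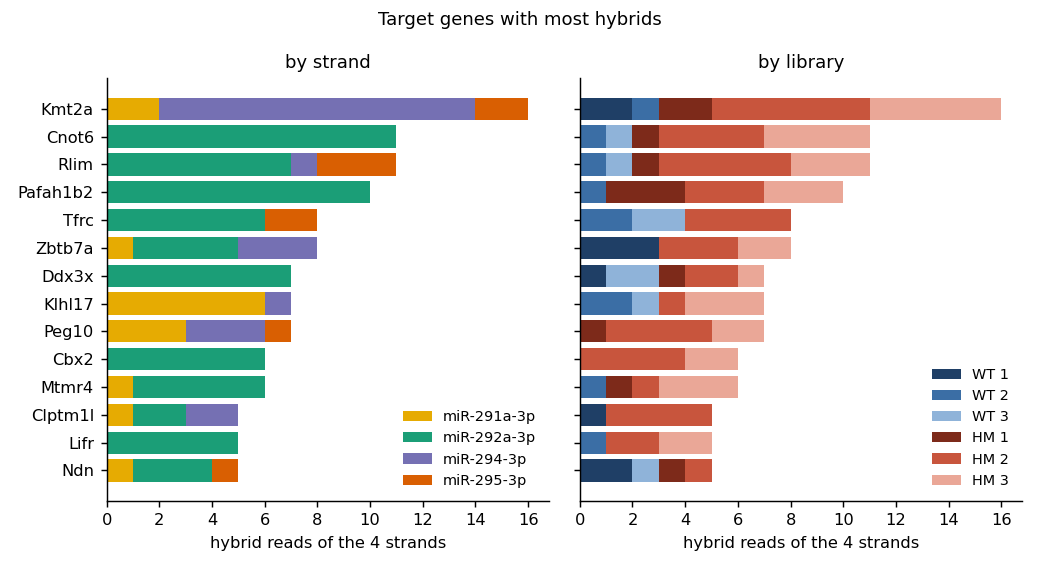
Hybrid reads of the 4 strands (x axis) on the 14 genes with most such reads, split by strand (left) and by library (right), with no scaling for depth. Kmt2a leads with 16 reads, mostly of miR-294-3p, Cnot6, Pafah1b2, Ddx3x, Cbx2 and Lifr have reads of miR-292a-3p alone, and Peg10 and Cbx2 have none in WT libraries.

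Of 13 genes often described as targets of this seed, 9 were in the table with any miRNA and 3 of these (33.3%) had a hybrid of the 4 strands: Arid4b, a subunit of a Sin3 repressor complex, with 2 reads, Casp2, a caspase, with 1 and Tgfbr2, a TGF-beta receptor, with 1. Of the genes of G1/S control, 5 of 16 in the table had such a hybrid (31.2%), with 2 reads on Ccnd1, which encodes cyclin D1, and 1 each on Ccnd3, Cdk2, E2f2 and E2f7. TGF-beta, Nodal and BMP signalling had 4 of 22 (18.2%), with 2 reads on the activin receptor gene Acvr2b and 1 each on Acvr1, Smad2 and Tgfbr2. Apoptosis had 2 of 8 (Casp2 and Bcl2), DNA methylation and chromatin repression 2 of 14 (Arid4b and Sin3a), and Hippo signalling 0 of 7. Of the miRNA silencing machinery 2 of 8 had one, with 3 reads on Tnrc6b, which encodes a GW182 scaffold protein, and 2 on Ago1. Over all 3200 genes of the table the share was 10.4%. The authors kept only predicted combinations, so genes not predicted for the 4 strands could not hold such a hybrid. The shares of the lists therefore cannot be read as enrichment over 10.4%. No gene of these lists had over 3 reads, so none could be tested between genotypes.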

How the data were processed

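The authors identified the miRNA of each hybrid with QuagmiR, aligned the fragment with Bowtie2 to mouse 3′ UTRs and kept interactions predicted by TargetScan 8.0. Tool versions, the genome build and the handling of duplicates are not given in the sources used here. The deposited values are read counts per distinct hybrid sequence, without scaling.

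Reads were summed per miRNA and per miRNA-target pair. Features with at least 10 reads were compared by edgeR 4.0.16 in R 4.3.3 (quasi-likelihood), with 3p hybrids as library size (701 to 5113) and Benjamini-Hochberg adjustment at 0.05. On simulated counts with 4-fold changes, 19 of 23 changed miRNAs were recovered among 85 tested, and 5 of 19 changed pairs among 119, with 0 false calls. DESeq2 1.42.0 was an alternative. Shares were compared over libraries by exact permutation tests, and between strands by exact sign flips within libraries (Python 3.11.15, numpy 2.4.6, pandas 2.3.3, scipy 1.17.1, matplotlib 3.10.9). Starts came from the first 18 nt of the miRNA part against the RefSeq mature sequence, or against the most common miRNA part (miR-292a-3p and others, since 255 of 298 miRNAs matched), with up to 2 mismatches. Start and site calls were correct for 200 of 200 simulated hybrids. Their sites were planted between letters A and T only, so this checks the code and not calls in real fragments. Of 334 gene names, 301 matched a RefSeq symbol and 22 a synonym.

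The 4 strands and the gene lists were chosen with earlier results of these data known. The text names the 15 genes with most reads of the 4 strands (1 is not reported here), the other strands of the hairpins, and the 5 miRNAs with at least 50 reads and the highest cosine. Listed genes were to be named at 5 reads, which none reached, so those named were chosen after their counts were seen. Alternatives covered library size, read minimum, tool, counting each sequence once, site and start definitions, summed libraries, the replicate number as a block and leaving out each library.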

Additional observations from a re-analysis of the deposited data

How the results depend on the processing

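The counts of called strands changed from 0 of 4 to 1 with hybrids of any arm as library size, to 1 with TMM factors, to 2 without WT library 3 and to 1 without HM library 3; leaving out single libraries gave 0 to 2. No pair of the 4 strands was called under any setting (0 to 0 without single libraries). With hybrids of any arm as library size, the log2 fold changes of miR-291a-3p (0.40), miR-294-3p (0.41) and miR-295-3p (0.41) turned positive, as did that of miR-294-3p with Kmt2a (0.86). That pair was also positive with TMM (0.42), DESeq2 (0.67), the miRNA's own hybrids as offset (0.48) and without WT library 1 or HM library 2 (-0.58 to 0.78 over libraries left out). The value of miR-292a-3p ranged from -0.046 to 0.33 over libraries left out, below 0 without WT library 2 (-0.046) or HM library 2 (-0.0059), and that of its pair with Cnot6 from -0.20 (without WT library 1) to 0.88. That of its pair with Pafah1b2 was 0.77 to 0.90 where it could be tested. The share of miR-292a-3p among the 4 strands differed by 6.42 to 15.8 points over libraries left out. The cause of these changes was not tested. With at least 30 reads, or without HM library 3, no pair of the 4 strands could be tested.

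The replicate numbers did not pair the samples: deviations of same-numbered libraries correlated at 0.10, -0.02 and 0.09 over 94 miRNAs, and WT library 2 did not correlate best with its own number. With the replicate number as a block, 0 of 4 strands and 0 of 3 pairs were called, with the Kmt2a pair at 0.014, and calls went from 56 to 49 of all miRNAs and from 22 to 13 of all pairs. Calls over all pairs were also 13 with DESeq2, 33 with hybrids of any arm, 0 with the miRNA's own hybrids as offset and 8 to 17 without single libraries.

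The difference in seed sites of miR-291a-3p moved from -24.3 to -9.40 points with reference starts only and ranged from -31.0 to -20.3 over libraries left out. Its difference in reference starts ranged from -36.5 to -22.3. The contrast in the base before the site ranged from 68.1 to 73.6 points over libraries left out, where 5 libraries cannot give an exact p under 0.0625. The match to bases 13 to 16 ranged from -4.96 to 0.47 points for miR-291a-3p, from -0.77 to 3.16 for miR-294-3p and from -4.38 to 0.15 for miR-295-3p over libraries left out, reversing at one end of each, and was -5.50 for miR-294-3p with the match upstream of a seed site. Of 80 alternative values of main results, 69 stayed the same. Counting each sequence once changed no call among the 4 strands. Depth limits the rest: 6 to 20 reads of a strand in each WT library.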
